A study of Mus musculus with 10 samples.

Results

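Genes of fat absorption and chylomicron assembly were examined in mouse ileum, the distal small intestine. The group is a list of 31 genes, and a gene counted as measured where a probe had a detection p-value under 0.05 on at least 5 of the 10 arrays. Of the 31 genes 29 had a named probe on the bead array, 36 probes in all, and 23 genes were measured, out of 8685 named genes measured in the series. The ileum samples were 5 labelled as knockout for interferon-gamma (IFNgKO), the cytokine of T and natural killer cells, and 5 wild type (WT). The mice were 8-week-old C57Bl/6 males in specific-pathogen-free housing, fed standard chow, with no treatment listed, and the labels do not give the knockout allele. Array set 1 held 2 IFNgKO and 2 WT samples and array set 2 held 3 of each. The labels do not state that each of the 10 samples is another animal, and the spread behind the p-values is that between samples.

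Enterocytes take up fatty acids and monoacylglycerol from the lumen and rebuild them into triglyceride at the endoplasmic reticulum. The triglyceride is loaded onto apolipoprotein B by the microsomal transfer protein Mttp, coated with phospholipid and further apolipoproteins, and exported as chylomicrons into lymph. Most fat is absorbed in jejunum, and the ileum takes up what passes it, together with bile acids and sterols.

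The knockout itself could not be read on the arrays. Both Ifng probes were at background in every sample, with raw intensities of 83.1 to 94.1 and 73.1 to 93 in IFNgKO samples and of 66.9 to 90.3 and 69.5 to 110.7 in WT samples, so they do not check the labels. The arrays detected 10618 to 12975 probes each, and no pair of arrays was identical (highest correlation 0.989). Ileum_WT_641 stood apart: it detected the smallest number of probes, correlated least with the other arrays (mean 0.949) and had the lowest array weight (0.28). Values without it are given for some of the genes. Of 12 general enterocyte markers 10 were measured, with a mean log2 level of 13.04 to 13.50 in IFNgKO samples and 12.93 to 13.39 in WT samples. Of 9 ileal enterocyte markers 6 were measured, among them Fabp6, Slc51a, Slc51b and Fgf15, at mean levels of 13.50 to 13.95 in IFNgKO samples and 13.49 to 13.77 in WT samples. The probes of Slc10a2, the ileal bile acid transporter, and Nr0b2 gave no signal above background on any array.

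Across the pathway no gene passed 5%, and the differences leaned to lower levels in the knockout. The genotypes were compared in limma with array set as a term, on log2 intensities adjusted for background and quantile normalised, and p-values were adjusted over all 12039 probes tested (Benjamini-Hochberg). Of the 23 measured genes 0 passed an adjusted p of 5% by limma, where 0.0166% of all probes did. At an unadjusted p under 0.05, 8 genes were lower in IFNgKO ileum and 0 were higher, which is 34.8% and 0% of the 23, where 6.38% and 5.86% of all probes were. In all 18 of 23 differences were below 0, as were 49% of those of all probes. The median difference was -0.26 on the log2 scale, against 0.00 (0.004379) over all probes. The list was chosen with earlier results of these data known, so these shares describe it and are no independent support. The count of 8 rested on single samples, and leaving out Ileum_IFNgKO_646, Ileum_IFNgKO_647, Ileum_IFNgKO_649, Ileum_WT_642, Ileum_WT_643 or Ileum_WT_644 gave 3, 3, 2, 4, 5 and 4, with 4.31% to 7.28% of all probes lower and, without Ileum_IFNgKO_649, a median of -0.13. Without Ileum_WT_641 the count was 7, where 5.32% of all probes were lower, and the genes changed. Dgat1, Plin3 and Abcg8 then had unadjusted p of 0.057, 0.0724 and 0.063 (limma). Apoc3 and Abcg5 came under 0.05, with differences of -0.77 and -0.27. Under median scaling in place of quantile normalisation 2 genes were lower, where 1.05% of all probes were, and 14 differences were below 0. The median of all probes then moved to 0.19 and that of the 23 genes to -0.07, so the median of the genes minus that of all probes was -0.26 under both scalings. In bulk tissue, fewer enterocytes and less RNA per enterocyte cannot be told apart.

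**Figure D1:**
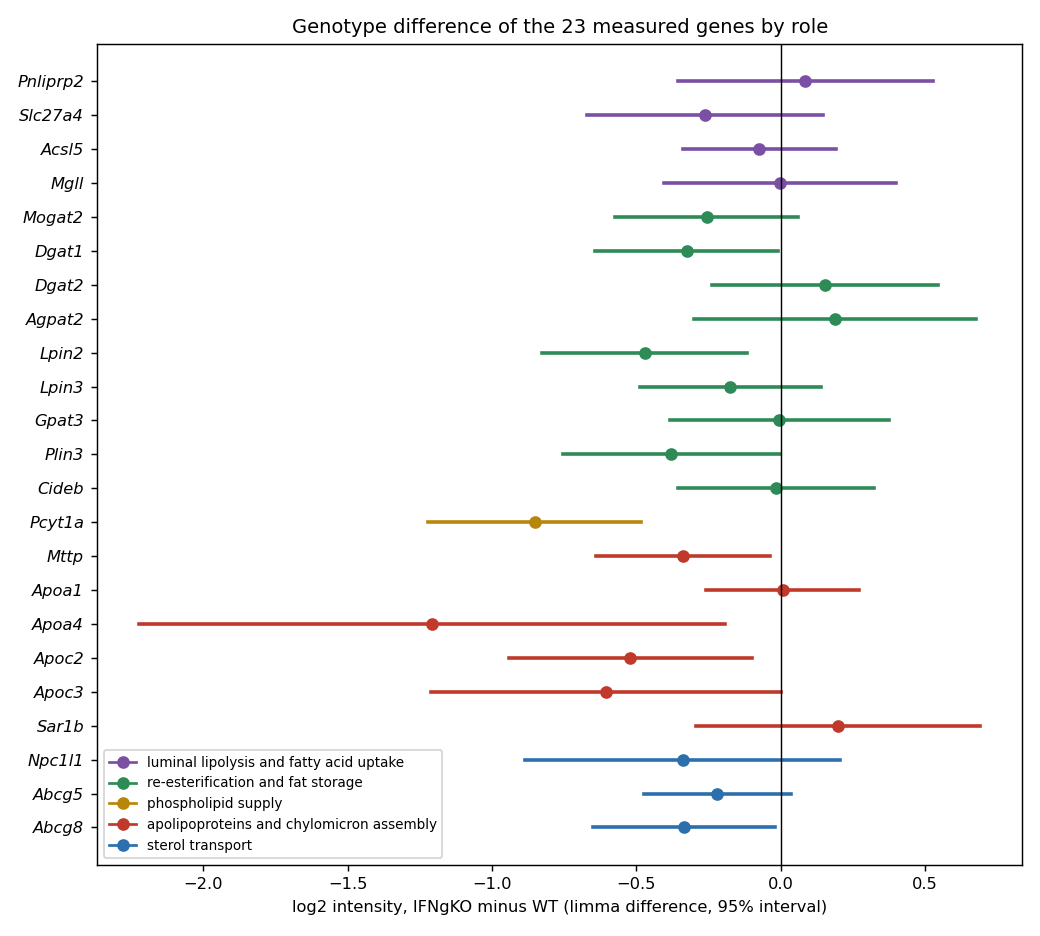
Genotype difference of the 23 measured genes, IFNgKO minus WT in log2 intensity on the x axis, by gene on the y axis and coloured by role. Points are limma differences over 5 IFNgKO and 5 WT samples and bars their 95% intervals; 18 points lie below 0, and Apoa4 at -1.21 lies farthest from it.

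The first step, lipolysis in the lumen and fatty acid uptake, held 8 listed genes, of which 4 were measured, with differences of -0.26 to 0.09. Acsl5, which activates fatty acids to acyl-CoA for triglyceride synthesis, differed by -0.07, with a 95% interval of -0.34 to 0.19. Slc27a4, the fatty acid transport protein FATP4, differed by -0.26 (interval -0.67 to 0.15), and by -0.17 without Ileum_IFNgKO_646 and -0.13 without Ileum_IFNgKO_649. Mgll, the monoacylglycerol lipase, differed by 0.00 (-0.002535) at its brightest probe (interval -0.41 to 0.40) and by -0.03 and 0.19 at the other 2. Pnliprp2, a lipase related to pancreatic lipase that also acts on galactolipids and phospholipids, differed by 0.09 and 0.13 at its 2 probes.

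Pnliprp2 was the one measured gene whose array sets differed at an unadjusted p under 0.05, and only at its brighter probe. At the dimmer probe the unadjusted p was 0.069 (limma interaction). At the brighter probe the log2 level was 12.22 and 11.86 in the IFNgKO samples of array set 1, against 11.58 and 11.28 in the WT samples of that set. In array set 2 it was 11.99, 11.95 and 12.33 in IFNgKO samples, against 12.52, 12.66 and 11.89 in WT samples. The difference was therefore 0.62 in set 1 and -0.27 in set 2, and the 2 sets differed by -0.88 (limma interaction, adjusted p = 0.999). An interaction p under 0.05 was found for 3.17% of all probes. Ileum_WT_641 was the lowest of all samples, and without it the pooled difference was -0.04. Pnliprp2 is known from exocrine pancreas, and of 17 acinar pancreas markers 6 were measured. Those 6 had mean levels of 8.20 to 8.90 in IFNgKO samples and 8.07 to 8.88 in WT samples. Clps, Klk1, Rnase1 and Cela1 were detected on all 10 arrays and Ctrb1 and Pnliprp1 on some, while Cpa1, Cpb1, Cela2a, Cela3b, Ctrc, Prss2 and Cel were not above background on any array.

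The other 4 genes of this step gave no reading. The probes of Fabp1 and Fabp2, the fatty acid binding proteins of enterocyte cytosol, lay at raw intensities of 72.3 to 86.9 and 71.0 to 90.2 in IFNgKO samples and of 65.2 to 84.7 and 69.2 to 96.2 in WT samples. These values are at background, where the median probe of an array lay at 93 to 111.8. The probes of Cd36, a fatty acid translocase, and Pla2g1b, the phospholipase A2 of pancreatic juice, were also not well above background on any array. Each of these genes has 1 probe here, and a probe at background says little of its transcript.

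Re-esterification was the step with the most measured genes, 9 of 9. At an unadjusted p under 0.05, 3 of them were lower, where 6.38% of all probes were. Lpin2, a lipin that turns phosphatidate into diacylglycerol, was one of them. Its log2 level was 9.56, 9.65, 9.54, 9.58 and 9.53 in IFNgKO samples, against 9.73, 10.67, 9.76, 10 and 10.05 in WT samples. Every IFNgKO value lay below every WT value, as was the case for 0.631% of all probes, and 0 of the 23 genes had all IFNgKO values above all WT values, where 0.706% of all probes did. The IFNgKO samples lay close together (SD 0.05), and the highest WT value was that of Ileum_WT_641. The difference was -0.47 ± 0.17 (SE), a ratio of 0.722, with an unadjusted p of 0.0134 and an adjusted p of 0.317 (limma). Without Ileum_WT_641 it was -0.31. Its paralogue Lpin3 differed by -0.17 (interval -0.49 to 0.14), and by -0.08 without Ileum_WT_644.

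Dgat1, one of the enzymes that add the last acyl chain to make triglyceride, was lower at an unadjusted p under 0.05. Its level was 11.62, 11.03, 11.12, 11.37 and 10.96 in IFNgKO samples, against 11.59, 11.63, 11.54, 11.31 and 11.66 in WT samples. The groups overlapped, since Ileum_IFNgKO_645 and Ileum_IFNgKO_648 stood among the WT values, and the difference was -0.33 ± 0.15 (SE; adjusted p = 0.397, limma). Dgat2, which catalyses the same reaction with an unrelated protein, differed by 0.15 (interval -0.24 to 0.55), and by 0.05 without Ileum_WT_641. Mogat2, the monoacylglycerol acyltransferase that starts the pathway in enterocytes, differed by -0.26 at its brighter probe (interval -0.57 to 0.06), and by -0.17 there without Ileum_IFNgKO_649. Its dimmer probe gave 0.00 (0.0038).

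Plin3, a coat protein of lipid droplets, was the third of these. It had log2 levels of 9.91, 9.59, 9.88, 10.49 and 9.94 in IFNgKO samples, against 9.55, 9.99, 10.85, 10.61 and 10.70 in WT samples. Of the WT samples of set 1, Ileum_WT_640 was the lowest of all and Ileum_WT_641 lay within the IFNgKO range, and those of set 2 lay above all IFNgKO values. The difference was -0.38 ± 0.17 (SE; adjusted p = 0.407, limma), made up of -0.02 in set 1 and -0.62 in set 2. Agpat2, which makes phosphatidate, differed by 0.19, or by -0.07 without Ileum_WT_641. Gpat3, which makes lysophosphatidate, differed by 0.00 (-0.003872) at the brighter of 2 probes and by 0.20 at the other. Cideb, a lipid droplet protein that helps to enlarge nascent lipoproteins in liver, differed by -0.02.

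Pcyt1a had the lowest p of the 23 genes. It encodes the enzyme CCT-alpha, which sets the rate of phosphatidylcholine synthesis, the phospholipid of the chylomicron surface. Its log2 level was 9.87, 9.17, 9.64, 9.91 and 9.56 in IFNgKO samples, against 10.29, 10.01, 10.97, 10.71 and 10.42 in WT samples. All 5 IFNgKO samples lay below all 5 WT samples. The difference was -0.85 ± 0.17 (SE), a ratio of 0.554 with a 95% interval of 0.429 to 0.716. It had an unadjusted p of 0.000247 and an adjusted p of 0.175 (limma), so it did not pass 5%. Within set 1 it was -0.63 and within set 2 -1.0, and the value was -0.99 to -0.76 when any 1 sample was left out. Over 22 alternatives the adjusted p was 0.131 to 0.9.

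**Figure D2:**
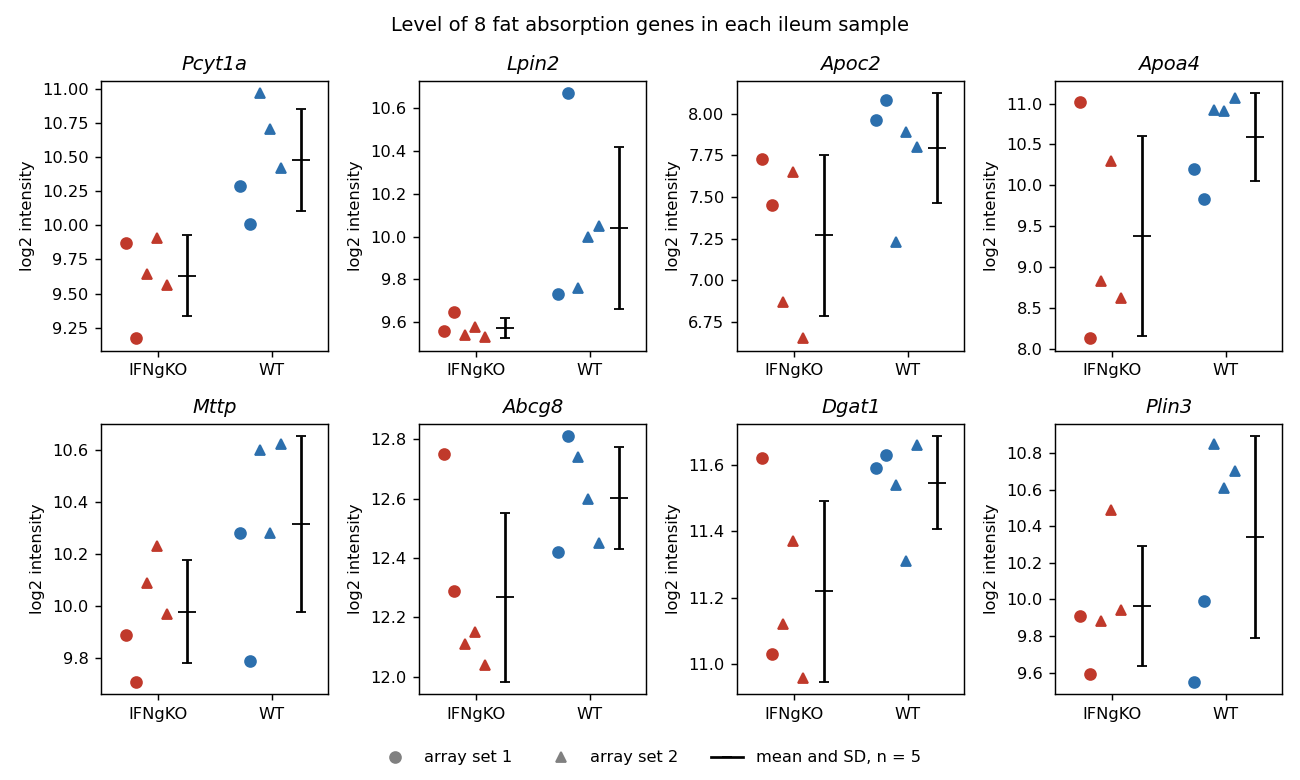
Log2 intensity (y axis) of the 8 genes with an unadjusted p under 0.05, in IFNgKO samples on the left of each panel and WT samples on the right, with circles for array set 1 and triangles for array set 2. Bars are the mean and SD (n = 5 each); the groups do not overlap for Pcyt1a and Lpin2 and overlap for the other 6 genes.

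The apolipoproteins and assembly genes, 6 of 7 measured, held the difference farthest from 0, that of Apoa4, and one of the nearest to it, that of Apoa1. Apoa4, which encodes apolipoprotein A-IV, made by enterocytes in response to fat and carried out on chylomicrons, had a log2 level of 11.02, 8.13, 8.83, 10.30 and 8.63 in IFNgKO samples. The WT samples had 10.20, 9.84, 10.92, 10.91 and 11.07. Of the IFNgKO samples 3 lay below every WT sample, and Ileum_IFNgKO_645 and Ileum_IFNgKO_648 lay among the WT values. Mean levels were 9.38 ± 1.22 in IFNgKO samples and 10.59 ± 0.54 in WT samples (SD, n = 5 each). The difference was -1.21 ± 0.47 (SE), a ratio of 0.433 with an interval of 0.214 to 0.875 (adjusted p = 0.355, limma). It was -0.45 in set 1, where Ileum_IFNgKO_645 was above both WT samples and Ileum_IFNgKO_646 below both, and -1.71 in set 2.

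Apoc3 and Apoa1 lie beside Apoa4 on chromosome 9, in the order Apoa1, Apoc3, Apoa4 with 0 other protein-coding genes starting between them (RefSeq, GRCm38.p6). Their values are given in each sample for that reason, chosen after they were seen. Apoc3, whose product slows the clearance of triglyceride-rich particles, had 12.55, 11.78, 11.76, 12.30 and 10.78 in IFNgKO samples, against 12.42, 11.93, 12.75, 12.58 and 12.52 in WT samples. Ileum_IFNgKO_649 was the lowest, and the difference was -0.60 ± 0.28 (SE; adjusted p = 0.408, limma), with -0.01 in set 1 and -1.0 in set 2. Without Ileum_IFNgKO_649 it was -0.33. Apoa1, the main protein of high-density lipoprotein, had 15.36, 14.97, 15.28, 15.12 and 15.32 in IFNgKO samples, against 15.25, 15.16, 15.12, 15.20 and 15.27 in WT samples. All WT values lay within the IFNgKO range, and the difference was 0.01 with an interval of -0.26 to 0.27. The Apoa1 probe ranked 16.5 (median over arrays) among 25697 probes, with raw intensities of 31072 to 45226 in IFNgKO samples and 32056 to 42098 in WT samples. The brightest probe of each array lay at 41862 to 57951, so Apoa1 was read near the top of the scale. That limits what its difference near 0 can show, and whether it was understated there was not tested.

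The promoter windows of Apoa4 and Apoa1 are shown because their differences were far apart, and none is shown for Apoc3. RefSeq promoters of GRCm38.p6 were matched for 25 of the 31 genes, in 32 windows that run from 250 bases before the transcript start to 50 after it, written 5′ to 3′ on the gene's strand. Capitals mark motifs, chosen with the sequences in view and searched on both strands. They were AGGTCA (nuclear receptor half-site), CAAAGTNCA (HNF4 core), TGACGTCA (cyclic AMP response element), CACGTG (E-box) and TATAAA (core promoter box).
Apoa4 (chr9:46240594-46240893, plus strand): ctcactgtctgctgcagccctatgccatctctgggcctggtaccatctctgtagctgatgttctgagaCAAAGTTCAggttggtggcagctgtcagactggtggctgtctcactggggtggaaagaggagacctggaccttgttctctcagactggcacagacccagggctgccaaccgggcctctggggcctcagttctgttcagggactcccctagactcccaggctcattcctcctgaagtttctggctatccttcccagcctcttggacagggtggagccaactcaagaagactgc
Apoa1 (chr9:46228380-46228679, plus strand): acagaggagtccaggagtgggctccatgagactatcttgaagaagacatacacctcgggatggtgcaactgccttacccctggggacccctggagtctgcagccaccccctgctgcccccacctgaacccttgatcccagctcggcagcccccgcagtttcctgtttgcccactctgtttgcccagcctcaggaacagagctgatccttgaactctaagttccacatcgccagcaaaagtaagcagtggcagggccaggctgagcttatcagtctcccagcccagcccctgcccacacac
The Apoa4 window held 1 match of the HNF4 core, which begins 182 bases before the start, and the Apoa1 window held no exact match of the motifs. Inexact matches were not counted, and the part of any motif in the differences was not tested. The HNF4 core was found in 1.41% of all 32851 promoter windows and in 2 of the 32 windows of the group, those of Apoa4 and Fabp2. A match is a description of the letters and not evidence of binding.

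Apoc2, the activator of lipoprotein lipase, had a log2 level of 7.73, 7.45, 6.87, 7.65 and 6.65 in IFNgKO samples, against 7.96, 8.08, 7.23, 7.89 and 7.80 in WT samples. Ileum_WT_642 lay within the IFNgKO range, and the other 4 WT samples lay above all IFNgKO values. The difference was -0.52 ± 0.19 (SE; adjusted p = 0.344, limma), with -0.43 in set 1 and -0.58 in set 2. This probe was dim, with raw intensities of 179.3 to 311.2 in IFNgKO samples and 226.4 to 315.6 in WT samples, and a second Apoc2 probe was not well above background on any array.

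Mttp, the transfer protein that loads triglyceride onto apolipoprotein B, had 9.89, 9.71, 10.09, 10.23 and 9.97 in IFNgKO samples, against 10.28, 9.79, 10.60, 10.28 and 10.62 in WT samples. Within each array set the IFNgKO mean was below the WT mean, with differences of -0.23 and -0.41, and the one WT value inside the IFNgKO range was that of Ileum_WT_641. The difference was -0.34 ± 0.14 (SE; adjusted p = 0.371, limma). Sar1b, the small GTPase that buds chylomicron-sized transport vesicles, differed by 0.20 and 0.12 at its 2 probes, and by -0.04 at the brighter one without Ileum_WT_641. Apob was not analysed here.

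The promoters of Apoc2, Pcyt1a and Lpin2 are shown as those of the dim apolipoprotein gene and of the genes whose groups did not overlap. Pcyt1a and Lpin2 have 3 annotated windows each, and the most upstream one is printed.
Apoc2 (chr7:19677892-19678191, minus strand): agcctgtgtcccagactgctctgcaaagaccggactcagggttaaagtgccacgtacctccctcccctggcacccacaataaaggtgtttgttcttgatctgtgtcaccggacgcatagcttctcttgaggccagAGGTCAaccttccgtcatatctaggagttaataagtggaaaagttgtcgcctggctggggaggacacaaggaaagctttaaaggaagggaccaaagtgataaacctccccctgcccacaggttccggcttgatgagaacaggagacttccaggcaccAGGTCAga
Pcyt1a (chr16:32430671-32430970, plus strand): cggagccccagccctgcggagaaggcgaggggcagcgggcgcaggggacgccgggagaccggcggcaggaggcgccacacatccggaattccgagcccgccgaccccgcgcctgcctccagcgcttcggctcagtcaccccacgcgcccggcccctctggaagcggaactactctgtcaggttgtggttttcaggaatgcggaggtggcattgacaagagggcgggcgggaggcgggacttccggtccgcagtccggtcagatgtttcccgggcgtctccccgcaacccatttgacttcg
Lpin2 (chr17:71183282-71183581, plus strand): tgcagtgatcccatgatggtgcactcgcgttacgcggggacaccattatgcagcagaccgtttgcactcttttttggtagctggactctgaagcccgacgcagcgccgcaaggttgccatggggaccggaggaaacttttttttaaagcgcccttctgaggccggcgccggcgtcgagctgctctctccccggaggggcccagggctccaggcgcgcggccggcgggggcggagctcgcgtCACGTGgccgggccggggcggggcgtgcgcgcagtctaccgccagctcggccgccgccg
The Apoc2 window held 2 nuclear receptor half-sites, beginning 115 bases before and 42 bases after the start, and such a half-site was in 16.3% of all windows. The Lpin2 window held 1 E-box, 9 bases before the start, and 7.15% of all windows had one. The Pcyt1a window printed held none of the motifs, and another of its 3 windows held a nuclear receptor half-site.

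Sterol transporters, 3 of 6 measured, all had differences below 0. Abcg8, which with Abcg5 pumps plant sterols and cholesterol back into the lumen, had 12.75, 12.29, 12.11, 12.15 and 12.04 in IFNgKO samples, against 12.42, 12.81, 12.74, 12.60 and 12.45 in WT samples. Ileum_IFNgKO_645 stood among the WT values, and the other 4 IFNgKO samples lay below all WT samples. The difference was -0.33 ± 0.15 (SE; adjusted p = 0.387, limma), with -0.09 in set 1 and -0.49 in set 2. Its partner Abcg5, its neighbour on chromosome 17, differed by -0.22 (interval -0.47 to 0.03). Npc1l1, the transporter of cholesterol uptake and target of ezetimibe, differed by -0.34 (interval -0.88 to 0.21), with Ileum_IFNgKO_645 the highest of all samples at 12.39 and Ileum_IFNgKO_649 the lowest at 10.90. Its difference was -0.53 without Ileum_IFNgKO_645, -0.21 without Ileum_IFNgKO_646 and -0.12 without Ileum_IFNgKO_649. The probes of Scarb1, a lipoprotein receptor, and Abca1, which exports cholesterol to apolipoprotein A-I, were not well above background on any array. Soat2 was not analysed here.

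**Figure D3:**
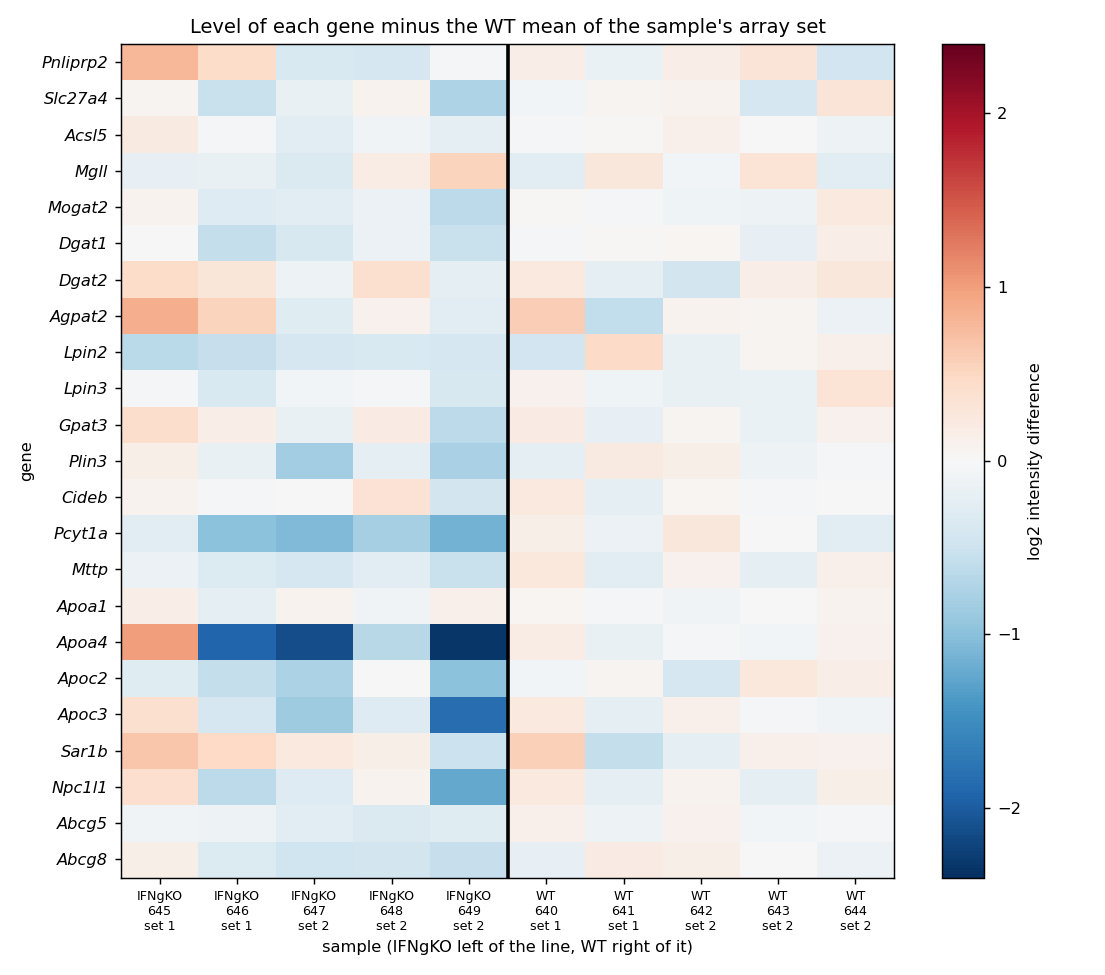
Log2 level of each of the 23 genes (rows) in each sample (columns, IFNgKO left of the line and WT right of it) minus the WT mean of that sample's array set, so WT samples centre on 0 within each set. Blue is lower and red higher; Ileum_IFNgKO_649 was below in 21 of 23 genes and Ileum_IFNgKO_645 in 7.

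The IFNgKO samples were not alike. Set against the WT mean of its own array set, Ileum_IFNgKO_645 was lower in 7 of 23 genes with a median of 0.14, and Ileum_IFNgKO_646 in 18 with a median of -0.31. In array set 2, Ileum_IFNgKO_647 was lower in 21 with a median of -0.31, Ileum_IFNgKO_648 in 14 with -0.08, and Ileum_IFNgKO_649 in 21 with -0.53. Over all probes the same share was 49% to 51% in each of these 5 samples, and the median was -0.01 to 0.01. Ileum_IFNgKO_649 was the lowest of all 10 samples for 11 of 23 genes (47.8%), where it was the lowest for 13.3% of all probes. The 11 were Slc27a4, Mogat2, Dgat1, Lpin2, Lpin3, Gpat3, Cideb, Apoc2, Apoc3, Npc1l1 and Abcg8. Enterocyte markers had a mean level of 13.19 in that sample and 13.12 in Ileum_IFNgKO_645, and ileal markers 13.50 and 13.76, within the WT ranges given above.

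**Figure D4:**
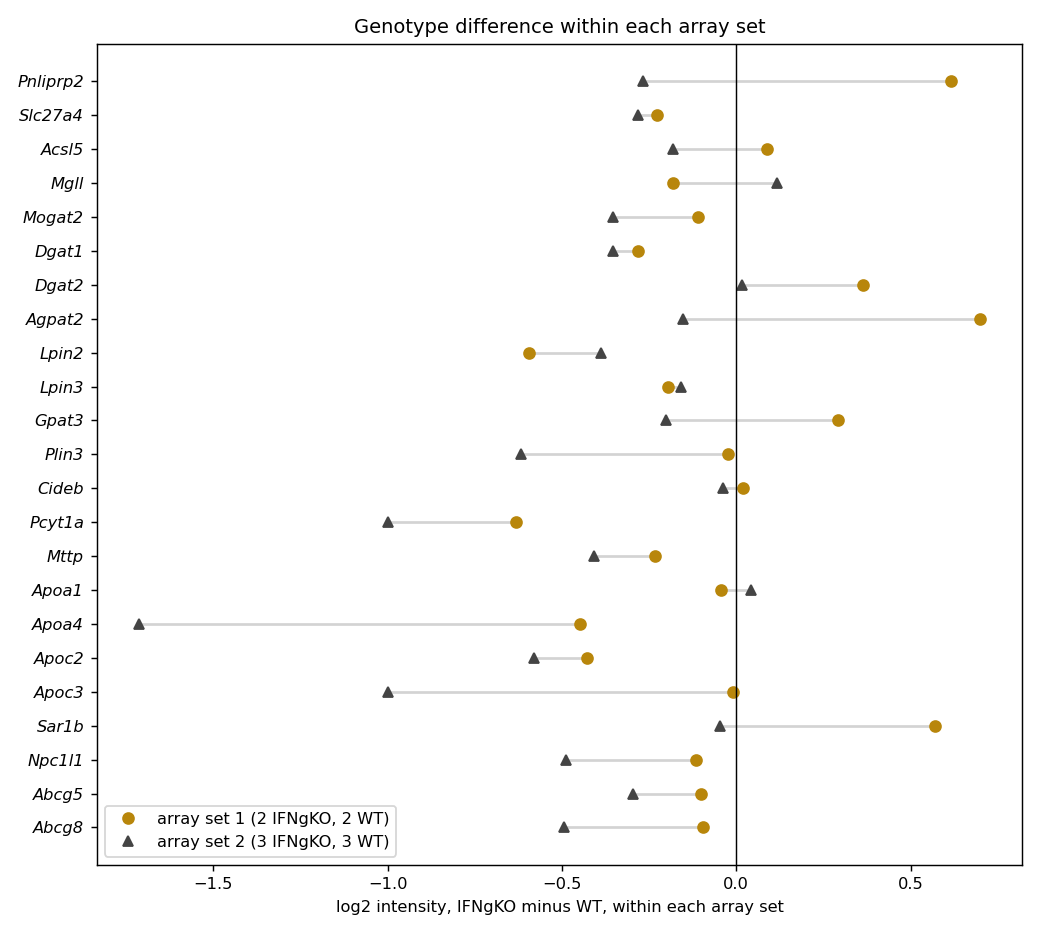
Difference between IFNgKO and WT in log2 intensity (x axis) within array set 1 (circles, 2 samples per genotype) and array set 2 (triangles, 3 per genotype) for each of the 23 genes (y axis). The triangle lies left of the circle for 19 genes, and the grey line joins the 2 values of a gene.

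Both array sets had medians below 0, and in set 1 the 2 IFNgKO samples went opposite ways, as given above for Ileum_IFNgKO_645 and Ileum_IFNgKO_646. Fitted alone, set 1 gave 0 genes lower and 1 higher at an unadjusted p under 0.05, where 1.85% of all probes were lower. Set 2 alone, with more samples, gave 7 lower and 0 higher, where 3.56% of all probes were lower. The gene higher in set 1 was Pnliprp2 (0.628, unadjusted p = 0.0488, limma), and the share of all probes higher was not counted in these 2 fits. Whether the sets differ over the list as a whole was not tested. In set 1, 16 of 23 differences were below 0, with a median of -0.10, and in set 2, 20 of 23 with a median of -0.30, while the median over all probes was 0.00 (-0.004916 and 0.0001999) in each set. Below 0 in both sets were 14 of 23 genes (60.9%), where 31.5% of all probes were, and above 0 in both was Dgat2 alone, where 30.8% of all probes were. The set 2 difference was below the set 1 difference for 19 of 23 genes, and for 48.7% of all probes. No gene's sets differed past 5% (limma interaction, adjusted over all probes), and at an unadjusted p under 0.05 only Pnliprp2 did among the 23, at its brighter probe. By role, the median difference in set 1 and set 2 was -0.14 and -0.49 for apolipoproteins and assembly, -0.10 and -0.49 for sterol transport, -0.02 and -0.20 for re-esterification, and -0.05 and -0.22 for lipolysis and uptake.

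Other genes of the pathway were taken from lists of textbook genes, 97 genes of which 89 had a probe and 72 were measured. None passed 5% by limma. At an unadjusted p under 0.05, 6 of the 72 were lower and 3 higher in IFNgKO ileum, where 6.38% and 5.86% of all probes were. Their median difference was -0.06, nearer to that of all probes than that of the 23 genes. Among genes of phospholipid supply, 9 of 14 measured, 4 had differences below 0 and 5 above. Chpt1, the phosphotransferase that uses the product of the Pcyt1a step, averaged a log2 level of 8.83 ± 0.20 in IFNgKO samples and 8.32 ± 0.26 in WT samples (SD, n = 5 each; difference 0.51, adjusted p = 0.272, limma). Pcyt2 and Selenoi, of the parallel phosphatidylethanolamine branch, differed by -0.22 and -0.17.

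Among the other glycerolipid and droplet genes, 12 of 15 measured, 3 were lower at an unadjusted p under 0.05 and 0 higher. Of all probes 6.38% were lower and 5.86% higher. Abhd5, the co-activator of adipose triglyceride lipase, differed by -0.53 ± 0.18 (SE; adjusted p = 0.306, limma), and that lipase, Pnpla2, by -0.31 ± 0.13 (adjusted p = 0.374). Gpat4, a glycerol-phosphate acyltransferase, had 11.52, 11.48, 11.40, 11.57 and 11.59 in IFNgKO samples, against 11.81, 12.37, 11.66, 11.70 and 11.69 in WT samples. All its IFNgKO values lay below all WT values, as was the case for 0.631% of all probes. The highest WT value, 12.37, was that of Ileum_WT_641, and the difference was -0.33 ± 0.14 (SE; adjusted p = 0.383, limma). Among uptake and activation genes, 11 of 13 measured, Slc27a2 differed by -0.46 ± 0.17, Lipa, the lysosomal acid lipase, by -0.53 ± 0.22 and Acsl4 by -0.25 ± 0.14.

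In assembly and export, 15 of 21 measured, 8 differences were below 0 and 7 above, and Apoc1 alone had an unadjusted p under 0.05. Apoc1 had 7.29, 6.68, 5.27, 7.87 and 7.55 in IFNgKO samples, against 6.15, 5.65, 5.40, 6.73 and 6.19 in WT samples (difference 0.91 ± 0.42, SE; adjusted p = 0.405, limma). Fat cell markers, 5 of 10 measured, had mean levels of 7.08, 6.76, 6.28, 7.86 and 7.62 in the same IFNgKO samples, against 7.13, 6.50, 6.34, 7.77 and 7.40 in the WT samples. Both were lowest in Ileum_IFNgKO_647 and highest in Ileum_IFNgKO_648. Of the fat cell markers Fabp4, Plin1 and Retn were not above background on any array. Adipoq and Lep differed by 0.78 and 0.34, and Lipe, Cidec and Pck1 by -0.41, -0.17 and -0.07. Liver markers were also highest in Ileum_IFNgKO_648, at 7.4, and the part of fat or liver tissue in the Apoc1 difference was not tested. Apobec1, the enzyme that edits Apob mRNA, differed by -0.25 ± 0.15 and Sec13, of the COPII coat, by 0.20 ± 0.13. Of sterol genes 9 of 13 were measured and 0 had an unadjusted p under 0.05, with Stard3 at -0.42 ± 0.20, Pltp at 0.40 ± 0.21 and Npc2 at -0.13 ± 0.17.

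Regulators of the pathway, 16 of 21 measured, had 13 differences below 0 and 3 above, and a median of -0.20, where 49% of all probes were below 0. At an unadjusted p under 0.05, 1 was lower and 1 higher, where 6.38% and 5.86% of all probes were. Srebf1, the lipogenic SREBP gene, differed by 0.75 ± 0.20 (SE; adjusted p = 0.242, limma), and Cdx2, the intestinal homeobox factor, by -0.41 ± 0.14 (adjusted p = 0.316). Hnf4a differed by -0.07 ± 0.13 and Hnf4g by -0.31 ± 0.15, and Ppara was not measured. Creb3l3, a membrane-bound transcription factor of liver and small intestine known to act on Apoa4 and other apolipoprotein genes, had 10.04, 9.15, 9.38, 9.85 and 8.43 in IFNgKO samples, against 9.85, 9.08, 10.26, 10.21 and 10.34 in WT samples. Its difference was -0.58 ± 0.30 (SE; adjusted p = 0.45, limma), with 0.13 in set 1 and -1.06 in set 2.

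**Figure D5:**
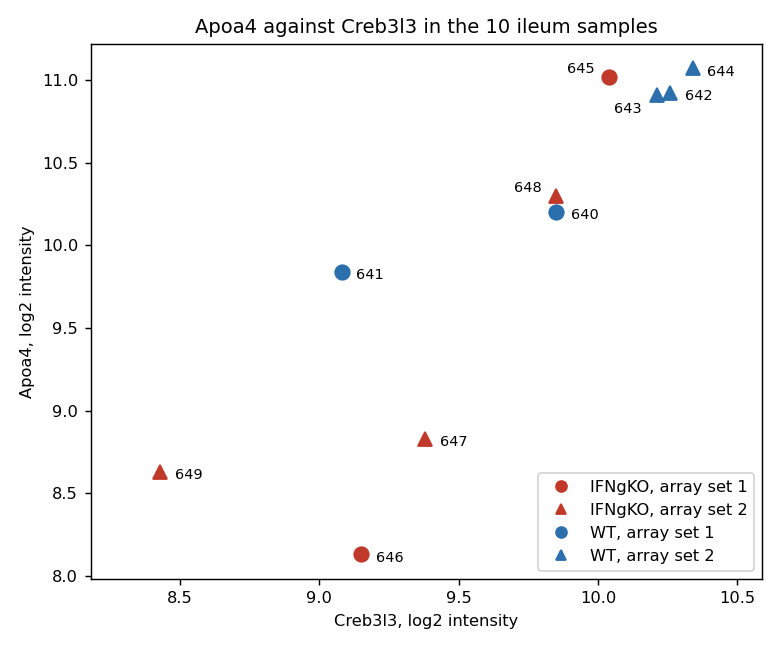
Apoa4 (y axis) against Creb3l3 (x axis), both in log2 intensity, in 5 IFNgKO samples (red) and 5 WT samples (blue), with circles for array set 1, triangles for array set 2 and sample numbers beside the points. Samples high in one gene were high in the other (Pearson's r = 0.864, n = 10).

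Creb3l3 and Apoa4 were high and low in the same samples. Over the 10 samples Pearson's r was 0.864 (permutation p = 0.00364, adjusted p = 0.0109) and Spearman's rho 0.9 (permutation p = 0.00076, adjusted p = 0.00228), two-sided, adjusted over the 3 measured regulators Creb3l3, Hnf4a and Hnf4g. Without the 2 samples farthest from the Creb3l3 median, Ileum_WT_641 and Ileum_IFNgKO_649, r was 0.975 (n = 8, exact permutation p = 0.00129). Within array set 2, r was 0.935 and the 6 samples had the same order for both genes (exact permutation p = 0.00278), and array set 1 with 4 samples is too small for a value. Hnf4a and Hnf4g had r of 0.0876 and 0.623 with Apoa4 (permutation p = 0.804 and 0.0698, adjusted p = 0.804 and 0.105, n = 10). Within array set 2 their r was 0.622 and 0.506 (exact permutation p = 0.261 and 0.314, n = 6). Without 2 samples each, Hnf4a gave 0.677 and Hnf4g -0.175. Spearman's rho was then 0.755 and -0.405 (exact permutation p = 0.0382 and 0.327, adjusted p = 0.0573 and 0.327, n = 8). These correlations were computed after the levels had been seen, so their p-values are no independent support, and the samples share genotype and array set. Creb3l3, like 11 of the 23 genes, was lowest in Ileum_IFNgKO_649. Among the IFNgKO samples Creb3l3, Apoc3 and Npc1l1 were each lowest in Ileum_IFNgKO_649 and highest in Ileum_IFNgKO_645. A correlation with Creb3l3 was computed for Apoa4 alone, so whether the relation is particular to Apoa4 was not tested.

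By a two-sided exact permutation test of the difference in mean marker level within array sets, which with 120 assignments cannot go below p = 0.0167, 0 of 8 marker lists passed. After adjustment over the 8 lists, a single list at that floor could not pass 5%, so this count decides little. Enterocyte markers differed by -0.01 (exact p = 0.817), ileal enterocyte markers by 0.06 (0.65) and goblet and Paneth markers by 0.07 (0.4). Smooth muscle markers differed by 0.17 (exact p = 0.383), with 11.97 to 12.30 in IFNgKO samples and 11.44 to 12.34 in WT samples. Immune markers, 5 of 12 measured and without a signal for Ptprc or Cd8a, differed by 0.29 (exact p = 0.0667, adjusted p = 0.534), with 8.13 to 8.71 in IFNgKO samples and 7.87 to 8.54 in WT samples. Pancreas, fat and liver markers differed by 0.06, 0.09 and 0.32, with exact p-values of 0.417, 0.733 and 0.25, and Alb, Fga, Fgb and Ahsg were not above background on any array. The part of these cell types in the differences of the 23 genes was not tested.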

How the data were processed

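Total RNA of 10 ileum samples was hybridised to Illumina mouse bead arrays, 1 per sample, after amplification into biotin-labelled RNA, per the labels' protocols. The deposited table holds linear intensities, not background subtracted, and detection p-values for each probe and array, per the file headers. The authors' value table holds quantile normalised intensities, as read from its values (column medians 104.3 to 104.8, with ranks as in the other table), and was an alternative. Per the submitters' processing notes lumi was used, in an unstated role.

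Intensities were background corrected by normexp from the detection p-values, with an offset of 16, quantile normalised and put on the log2 scale (neqc). Of 25697 probes, 12039 were detected (detection p-value under 0.05 on 5 or more arrays) and tested with limma 3.58.1 in R 4.3.3 (lmFit, eBayes, array set additive), with Benjamini-Hochberg adjustment over all of them. The brightest tested probe stood for a gene. Platform gene names were updated through a RefSeq gene table (GRCm38.p6), which matched all but 7 of 23978 named probes and updated 8; 1719 probes are unnamed here and 0 named several genes. Per-set differences came from genotype nested in array set.

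The members and lists were chosen with earlier results of these data known. All 31 genes are named, values per sample are given for those with an unadjusted p under 0.05 or groups that do not overlap, for Apoa4, Apoc2 and Mttp in any case, and for Pnliprp2, Apoc3 and Apoa1, added after their values were seen, and other lists are represented by their 3 lowest p and by Hnf4a, Hnf4g, Creb3l3 and Ppara. The fit was tested on simulated data with known changes. Alternatives changed background, offset, normalisation, values, filter, array set handling, weights and probe summary, and left out each sample. The number of arrays limits the precision. The search for 1 further promoter motif is not reported here.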

Additional observations from a re-analysis of the deposited data

Results flagged for a closer look

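Of 46 groups of 5 samples examined, 1 per measured gene and genotype, 2 held a sample whose gap to its nearest neighbour was over 0.71 of the group's range, a limit (Dixon's) that chance passes in about 1 group in 20. Sar1b in Ileum_IFNgKO_649 was 12.12, below the other IFNgKO samples, which lay between 12.77 and 13.03, with a gap of 0.714 of the range. Cideb in Ileum_WT_640 was 12.26, above the other WT samples, with a gap of 0.723 of the range.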

How the results depend on the processing

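No paired analysis was possible because IFNgKO and WT samples share no number in the labels. With limma, 0 of the 23 genes passed an adjusted p of 5% under all 22 alternatives, as in the fit reported. The 8 genes lower at an unadjusted p under 0.05 became 2 under median scaling, 4 without the array set term and 0 in array set 1 alone, where 1 gene was higher. The share of all probes lower was 6.38% as reported and 1.05%, 3.6% and 1.85% under these alternatives. Leaving out 1 sample gave 2 to 11 lower genes. The median difference was -0.0747 under median scaling, -0.109 in array set 1 alone and -0.339 to -0.132 with 1 sample left out. Of 506 differences, 23 genes under 22 alternatives, 467 kept their direction and side of the threshold and 39, in 9 genes, had the opposite sign. Under median scaling, which moved the median of all probes to 0.186, these were Acsl5 at 0.00694, Mgll at 0.211, Lpin3 at 0.0619, Gpat3 at 0.211, Cideb at 0.176 and Apoa1 at -0.0457. Under array weights they were Pnliprp2 at -0.03 and Apoa1 at -0.00692, and with the mean of a gene's probes Mgll at 0.0538 and Gpat3 at 0.101. In array set 1 alone they were Acsl5 at 0.0656, Gpat3 at 0.299, Cideb at 0.0169 and Apoa1 at -0.0585, and in array set 2 alone Pnliprp2 at -0.262, Mgll at 0.115, Agpat2 at -0.153 and Sar1b at -0.0449. With 1 sample left out, Pnliprp2 ranged over -0.0503 to 0.218, Mgll -0.132 to 0.109, Agpat2 -0.0697 to 0.29, Gpat3 -0.111 to 0.137, Cideb -0.116 to 0.0998, Apoa1 -0.0421 to 0.0769 and Sar1b -0.0356 to 0.363. The cause was not tested. Genes at background have no reading here, and Apoa1 lay near the top of the scale.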
